A study of Mus musculus with 12 samples.

Results

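The 9 genes described here, Ifit1, Ifit2, Ifit3, Irf7, Irf9, Stat2, Usp18, Bst2 and Ifitm3, are interferon-stimulated genes, and they were followed in the medial prefrontal cortex (mPFC) of mice after chronic social defeat (CSD). They were chosen by name as members of the type I interferon response, 9 of 17656 genes measured, each through the brightest probe set that the platform annotation gives to that gene alone. Each of the 9 has 1 such probe set, and all of them lay above the noise level on all 12 arrays.

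Wild type mice of both groups, written below as HC and CSD, were compared. The CSD group held 6 male C57BL/6 mice that were defeated by an aggressive CD-1 mouse for 5 min per day on 14 days and that were killed 24 h after the last defeat for collection of the mPFC. The HC group held 6 home cage mice that lived in groups and were not defeated, whereas the defeated mice lived beside the aggressor behind a partition, so that defeat and housing cannot be told apart. The mice were adult males, their blood was flushed out with saline, and the mPFC was cut from slices along the border of the forceps minor. The defeated mice were screened on sociability and anxiety before tissue collection, so that the CSD group stands for mice that met those criteria. Total RNA, 200 ng per mouse, was hybridized to 1 Affymetrix Mouse Gene ST array per mouse, and the question addressed was how expression in the mPFC differed between the groups. Values are log2 expression after robust multi-array averaging (RMA), so that a difference of 1 is a 2-fold difference. The array medians ran from 7.50 to 7.69. No read depth exists for arrays, and the number of arrays limits the precision.

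Type I interferons are secreted by cells that sense foreign or misplaced nucleic acid. They bind the receptor Ifnar1 and Ifnar2, whose kinases Jak1 and Tyk2 phosphorylate Stat2. Stat2 and Irf9 are subunits of the factor ISGF3, which binds the interferon-stimulated response element (ISRE) and switches on antiviral genes. Stat2, Irf9 and Irf7 both carry the response and are induced by it, Usp18 shuts the receptor down, and Ifit1, Ifit2, Ifit3, Bst2 and Ifitm3 act on viruses. In brain, microglia, astrocytes, endothelial cells and neurons can all raise these genes.

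The sequence that ISGF3 binds is shown first, as the ISRE core GAAANNGAAA and its reverse TTTCNNTTTC, where N is any base. The RefSeq promoter windows of build GRCm38.p6 were searched on both strands, from 250 bases before to 50 bases after each window's annotated start. They held 8 of the 9 members, all but Usp18, in 10 windows. The core was found in 5 of these 8 genes, compared with 3.99% of the 27025 genes with a window, or 3.44% of all 32851 windows of that length. The stretches with a match are given below 5′ to 3′ along the gene, with the matches in capitals.
Ifit1, chr19:34640770-34640828, plus strand: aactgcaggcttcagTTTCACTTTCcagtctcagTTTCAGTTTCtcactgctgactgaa
Ifit3, chr19:34583358-34583431, plus strand: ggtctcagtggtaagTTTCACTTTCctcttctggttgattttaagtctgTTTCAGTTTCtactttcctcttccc
Stat2, chr10:128270261-128270300, plus strand: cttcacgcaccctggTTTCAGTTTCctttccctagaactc
Bst2, chr8:71537572-71537617, minus strand: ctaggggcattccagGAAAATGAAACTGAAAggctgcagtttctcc
Ifitm3, chr7:141010716-141010742, minus strand: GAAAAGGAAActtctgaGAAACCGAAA

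Ifit1 and Ifit3 each held the same pair of words, and the second word, TTTCAGTTTC, was also the match of Stat2. The 1 window of Ifit3 belongs to a start inside the span of the gene, chr19:34583119-34588982. Its stretch therefore lies within that span, and the sequence before the span was not searched. In Bst2 the capitals are 2 matches that overlap, and in Ifitm3 both matches lay just after the annotated start. The gamma-activated site core TTCNNNGAA, which reads the same on both strands, was found in Ifit2, Bst2 and Ifitm3. These are 3 of the 8 genes, compared with 9.55% of the genes with a window, or 8.30% of all windows. In Bst2 this core overlaps the first ISRE match, and in Ifitm3 it overlaps the second. The absence of a match in Irf7, Irf9 or, for the ISRE, Ifit2 says only that these letters are not in the windows searched. A match is a description of sequence, and no binding was measured here.

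**Figure D1:**
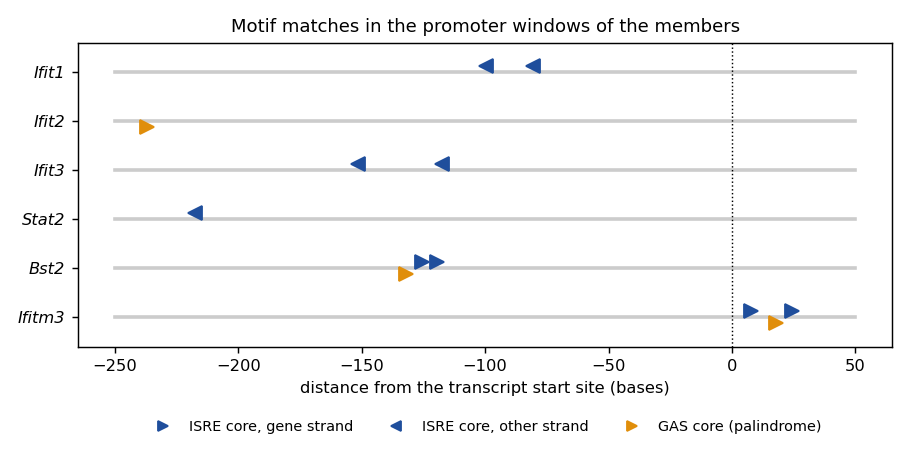
Position of motif matches in the promoter windows of the 6 members that hold one, in bases from the annotated transcript start (x axis). Blue triangles are ISRE cores and orange triangles gamma-activated site cores, pointing along the gene or against it. The matches of Ifit1, Ifit3 and Bst2 lie between positions -156 and -76, and those of Ifitm3 lie after the start.

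None of the 9 genes passed the test for up- or down-regulation after CSD. At an adjusted p under 0.05 with a fold change of at least 1.2, limma called 0 of the 9, and it called 0 of all 17656 genes (0.00%), whose smallest adjusted p was 0.0673. Without adjustment and with the same fold limit, 0 of 9 passed, compared with 0.680% of all genes. The HC and CSD values overlapped for all 9, compared with 1.01% of all genes whose groups did not overlap. The mean was higher in CSD for 3 genes and lower for 6, and of the 3, Irf7 turned lower with arrays centered on their medians or quantile normalized. Their median log2 difference, CSD minus HC, was -0.05, compared with -0.01 for all genes. As each p-value misses the threshold, the intervals say what size of difference remains possible. The 95% interval stayed inside a 1.2-fold change in both directions for 6 genes and reached past it for Ifit1, Ifit3 and Ifitm3, in the direction of lower expression in CSD.

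**Figure D2:**
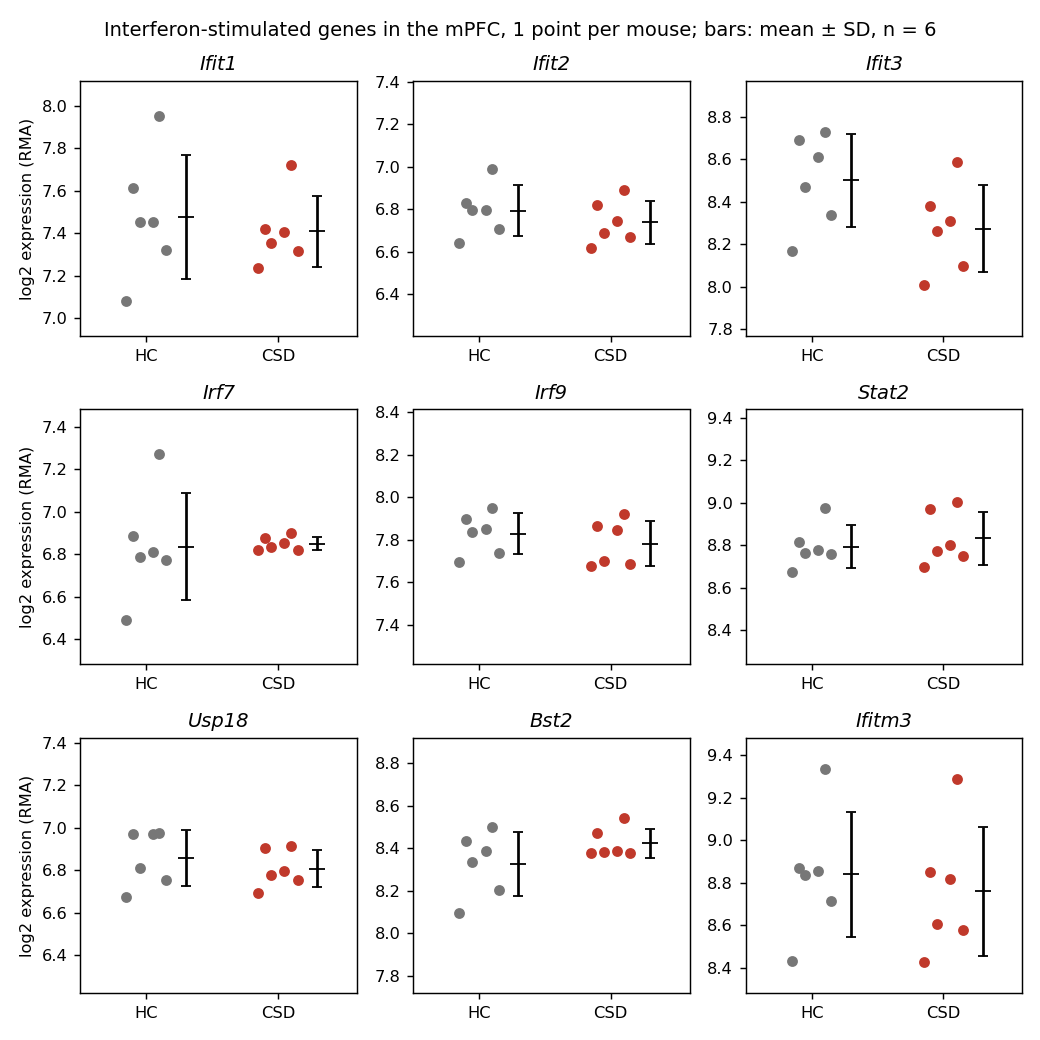
Log2 expression (y axis, RMA values) of the 9 genes in HC (grey) and CSD (red) mice, 1 point per mouse, with the mean ± SD of 6 mice in black; each panel spans the same number of log2 units. HC and CSD points overlap in every panel, and Irf7 spreads over 6.49 to 7.27 in HC but over 6.82 to 6.90 in CSD. The ends of Irf7 in HC are replicates 6 and 2, whose arrays have the lowest and the highest median.

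Ifit1, Ifit2 and Ifit3 lie near each other on chromosome 19 and code for antiviral proteins of 1 family, of which Ifit1 binds viral RNA and blocks its translation. Ifit3 had the largest difference of the 9. It ran from 8.17 to 8.73 in HC with a median of 8.54, and from 8.01 to 8.59 in CSD with a median of 8.29. The CSD mice tended to lie low, 5 of 6 below the HC mean, but only 2 of them fell outside the HC range. The mean in HC was 8.50 ± 0.22 (SD, n = 6). In CSD it was 8.27 ± 0.21 (SD, n = 6). The log2 difference was -0.23 (SE 0.11, 95% interval -0.47 to 0.02), with a limma p of 0.0645 before and 0.632 after adjustment and an exact permutation p of 0.102. The lower end of this interval is a 1.38-fold reduction. Without HC replicate 4, the lowest HC mouse, the unadjusted limma p was 0.0154, and without CSD replicate 7 it was 0.0188. Without HC replicate 1 it was 0.139 with a difference of -0.18, without CSD replicate 8 it was 0.145 with a difference of -0.17, and without HC replicates 2 and 6 together it was 0.254 with a difference of -0.15. The adjusted p stayed above the threshold under every alternative that was run.

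Ifit1, the founding member of the family, ran from 7.08 to 7.95 in HC with a median of 7.45, and from 7.23 to 7.72 in CSD with a median of 7.38. All 6 CSD values lay inside the HC range, whose ends were HC replicates 4 and 2. The log2 difference was -0.07 (SE 0.12, 95% interval -0.34 to 0.20; limma adjusted p 0.924, exact permutation p 0.628).

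Ifit2 spanned a smaller range, 6.64 to 6.99 in HC with a median of 6.79 and 6.61 to 6.89 in CSD with a median of 6.72. Of the CSD mice, 5 lay inside the HC range. CSD differed from HC by -0.06 on the log2 scale (SE 0.06, 95% interval -0.19 to 0.08; limma adjusted p 0.870, exact permutation p 0.407). The further family genes Ifit3b and Ifit1bl2 were above the noise level on 0 arrays and were not tested. In the annotation of build GRCm38.p6, Ifit2 spans chr19:34550550-34576534, Ifit3 chr19:34583119-34588982 and Ifit1 chr19:34640889-34650009.

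Among the transcription factors, Irf7, the factor that amplifies interferon production, had a wider spread in HC than in CSD. It ran from 6.49 to 7.27 in HC with a median of 6.80, and from 6.82 to 6.90 in CSD with a median of 6.84. The SD was 0.25 in HC and 0.03 in CSD (n = 6 each). HC replicate 2 was the highest and HC replicate 6 the lowest, and the remaining 4 HC mice lay between 6.77 and 6.89. The difference in spread was not tested. The log2 difference of the means was 0.01 (SE 0.10, 95% interval -0.19 to 0.22; limma adjusted p 0.987, exact permutation p 0.829). Irf7 lies at chr7:141263183-141266499.

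Stat2, the activating subunit of ISGF3, ran from 8.67 to 8.98 in HC with a median of 8.77, and from 8.70 to 9.004 in CSD with a median of 8.78. The groups overlapped over nearly their whole range. The log2 difference was 0.04 (SE 0.06, 95% interval -0.10 to 0.18; limma adjusted p 0.916, exact permutation p 0.589). The gene lies at chr10:128270498-128292853.

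Irf9, the DNA-binding subunit of ISGF3, ran from 7.69 to 7.95 in HC with a median of 7.85, and from 7.68 to 7.92 in CSD with a median of 7.77. In CSD 3 mice lay above the HC mean and 3 below. On the log2 scale CSD minus HC was -0.05 (SE 0.06, 95% interval -0.17 to 0.08; limma adjusted p 0.885, exact permutation p 0.420). The gene lies at chr14:55603985-55610030.

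Usp18 codes for the protease that removes Isg15 from proteins and blocks Jak1 at Ifnar2. It ran from 6.67 to 6.97 in HC with a median of 6.89, and from 6.69 to 6.91 in CSD with a median of 6.79. All 6 CSD values lay inside the HC range. CSD differed from HC by -0.05 on the log2 scale (SE 0.06, 95% interval -0.19 to 0.08; limma adjusted p 0.879, exact permutation p 0.422). The gene lies at chr6:121245906-121270917.

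The remaining 2 effectors are membrane proteins. Bst2, or tetherin, which holds budding virions at the cell surface, ran from 8.10 to 8.50 in HC with a median of 8.36, and from 8.38 to 8.54 in CSD with a median of 8.38. All 6 CSD mice were above the HC mean, but 5 of them lay inside the HC range. On the log2 scale CSD minus HC was 0.10 (SE 0.06, 95% interval -0.04 to 0.24), with a limma p of 0.159 before and 0.763 after adjustment and an exact permutation p of 0.203. The gene lies at chr8:71534255-71537472.

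Ifitm3, which keeps enveloped viruses from fusing with endosomes, had the widest spread among mice of both groups together. It ran from 8.43 to 9.34 in HC with a median of 8.85, and from 8.43 to 9.29 in CSD with a median of 8.71. A single mouse in each group stood above the others. CSD differed from HC by -0.08 on the log2 scale (SE 0.16, 95% interval -0.41 to 0.26; limma adjusted p 0.938, exact permutation p 0.643), and this interval is the widest of the 9. Its sign turned without HC replicate 6, where the difference was 0.02. The gene lies at chr7:141009590-141010744. The related genes Ifitm1, Ifitm2, Ifitm5, Ifitm6, Ifitm7 and Ifitm10 differed by between -0.06 (Ifitm6) and 0.08 (Ifitm5), and limma adjusted p-values were 0.729 for Ifitm5 and 0.769 for Ifitm6.

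**Figure D3:**
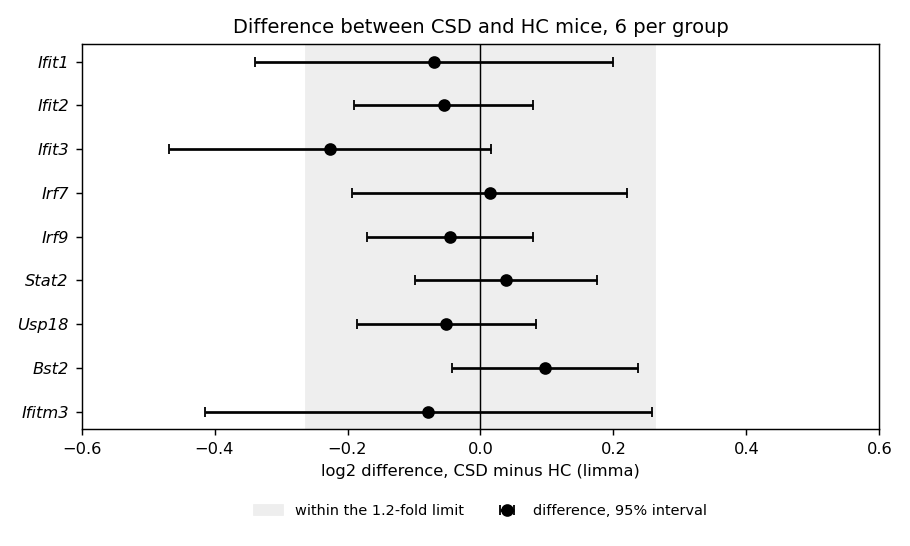
Log2 difference between CSD and HC (x axis, limma estimate with its 95% interval, 6 mice per group) for each of the 9 genes, with changes under 1.2-fold shaded. All 9 intervals include 0, and those of Ifit1, Ifit3 and Ifitm3 reach past the shaded band on the low side.

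The other genes of the interferon system were grouped by role in 9 lists. Of 171 listed genes, 133 were measured through a probe set of their own. Limma called 0 of them after adjustment, and 0 passed without adjustment at a fold change of at least 1.2. At an unadjusted p under 0.05, 5 of the 133 (3.76%) were higher in CSD and 10 (7.52%) were lower, compared with 1.89% and 6.52% of all genes. This split of 5 higher to 10 lower was 3 to 15 with quantile normalization and 3 to 13 with arrays centered on their medians. The groups did not overlap for 3 of the 133 (2.26%), compared with 1.01% of all genes. Means were higher for 65 and lower for 68, with a median log2 difference of -0.004. The probe set for Isg15 also names Gm9706, so Isg15 is given no value.

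Of 13 interferon ligands measured, 9 had a higher and 4 a lower mean, and 0 passed at an unadjusted p under 0.05. The 2 with the smallest p were Ifna2 and Ifnab, both secreted interferon alphas. Ifna2 differed by 0.14 (SE 0.07; limma adjusted p 0.639) and Ifnab by 0.21 (SE 0.12; limma adjusted p 0.699). The interferon alpha genes are near-identical copies, several of which share probe sets on this array, so that the signal of either is uncertain.

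Among the 9 receptors and kinases, 7 had a lower mean. Ifnar2, the signaling chain of the type I receptor, ran from 9.35 to 9.65 in HC with a median of 9.45, and from 9.13 to 9.33 in CSD with a median of 9.28. Every CSD mouse lay below every HC mouse. The log2 difference was -0.22 (SE 0.06, 95% interval -0.34 to -0.09), with a limma p of 0.00239 before and 0.277 after adjustment. Its exact permutation p was 0.00216, the smallest that 924 splits of 12 mice allow, before any adjustment for the 17656 genes. Il10rb, a chain shared by the receptors of interleukin 10 and interferon lambda, differed by -0.13 (limma adjusted p 0.554), and Tyk2, a receptor kinase, by 0.12 (limma adjusted p 0.583).

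Of 11 other STAT and IRF factors, 6 had a higher and 5 a lower mean, and 0 passed at an unadjusted p under 0.05. Irf3, which starts interferon transcription, differed by -0.08 and Stat6, which serves interleukin 4, by -0.06. Of 13 negative regulators, 9 had a lower mean. Ptpn11, a phosphatase of many receptor pathways, ran from 10.58 to 10.67 in HC and from 10.49 to 10.53 in CSD, so that these groups did not overlap either. Its difference was -0.10 (SE 0.03; limma p 0.00342 before and 0.312 after adjustment). Socs2, a cytokine signaling suppressor, differed by -0.11 (limma adjusted p 0.642).

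Of 16 genes that sense nucleic acid upstream of interferon, 9 had a lower mean. At an unadjusted p under 0.05, 3 of the 16 (18.75%) were lower, compared with 6.52% of all genes. This difference in share was not tested. Ddx58, the RNA sensor RIG-I, ran from 7.60 to 7.97 in HC and from 7.40 to 7.59 in CSD, again without overlap. Its difference was -0.20 (SE 0.06; limma p 0.00825 before and 0.385 after adjustment). Tlr3, an endosomal receptor of double-stranded RNA, differed by -0.17 (limma adjusted p 0.462), and Trim25, the ubiquitin ligase that acts on RIG-I, by -0.15 (limma adjusted p 0.529).

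The 44 other antiviral interferon-stimulated genes divided evenly, 22 with a higher and 22 with a lower mean, and their median was -0.0006. Trim21, an intracellular antibody receptor, differed by 0.13 (limma adjusted p 0.446), Oas2, which makes the activator of RNase L, by 0.10 (limma adjusted p 0.576), and Parp12, a mono-ADP-ribosyltransferase, by -0.12 (limma adjusted p 0.494). Of 7 interferon gamma induced GTPases, 4 had a lower mean. Irgm1, which acts in autophagy of intracellular pathogens, differed by -0.13 (limma adjusted p 0.555), and Gbp5 by -0.06 (limma adjusted p 0.845), with most of its values at the noise level.

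Genes of antigen presentation differed in both directions, and 0 passed adjustment. Of 14 class I genes, 7 had a higher and 7 a lower mean. Nlrc5, the transactivator of class I genes, differed by 0.14 (limma adjusted p 0.583) and Psme2, a proteasome activator subunit, by -0.11 (limma adjusted p 0.588). Of 6 class II genes, 5 had a higher mean, led by H2-Eb1 at 0.12 (limma adjusted p 0.540), whereas H2-DMa, which loads peptide on class II molecules, differed by -0.12 (limma adjusted p 0.462).

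**Figure D4:**
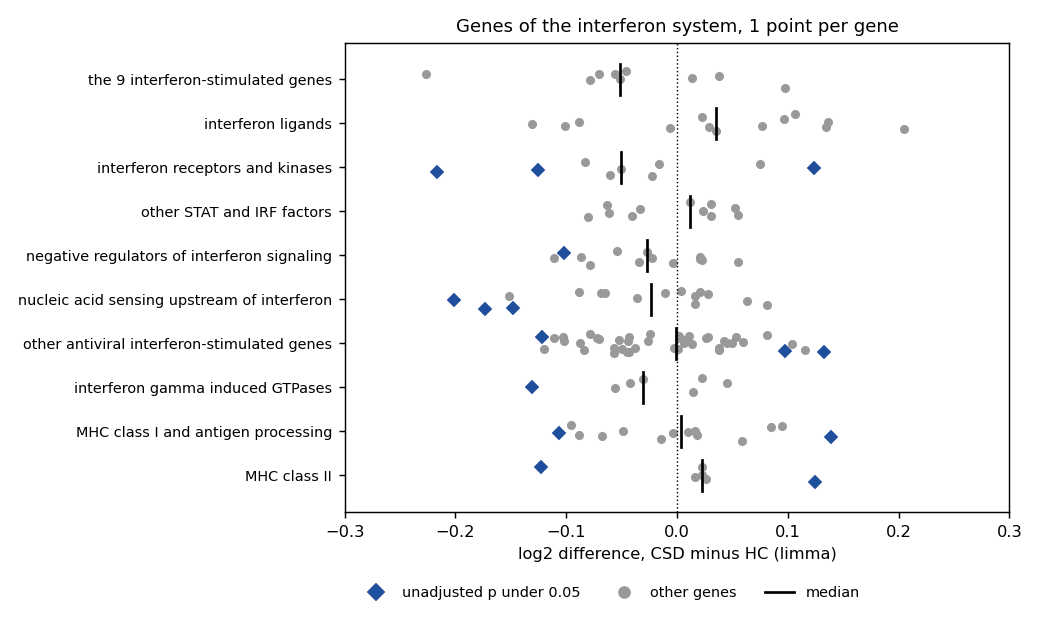
Log2 difference between CSD and HC (x axis, limma estimate, 6 mice per group) of the 9 genes and of the 133 other interferon system genes by role (rows), 1 point per gene, with black lines at the median of each row. Blue diamonds mark the 15 genes at an unadjusted p under 0.05, of which 0 passed adjustment; the medians of the rows lie between -0.05 and 0.03.

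Within the groups, the 9 genes tended to vary together from mouse to mouse. After the group means were subtracted, 32 of the 36 pairs of genes correlated above 0 over the 12 mice and 14 above 0.5, with a median r of 0.43. The range ran from -0.18 for Irf7 with Ifitm3 to 0.78 for Irf9 with Ifitm3. These correlations are descriptions, and the values share arrays and their normalization. Pairs of other genes were not examined, and the pairs were not recomputed with arrays centered on their medians. HC replicate 2 was the highest of all 12 mice in 5 of the 9 genes. Its array had the lowest weight of all, 0.26, in the fit with array weights. Within CSD, replicate 7 was the highest in 6 of the 9. Within HC, replicate 4 was the lowest in 4. When each gene was standardized over the 12 mice and the 9 were averaged, these mice stood at 1.40, 0.90 and -0.75 SD units. A second average was made with the group means subtracted before standardizing, and it was used for the correlations here and below. This within-group average correlated with the median of all values on the array at r = 0.71 (rho = 0.55) within groups.

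Of 17647 other genes, those most like this average within groups were Kcnj13 (r = 0.97), Bcl2l11 (r = 0.95), Itih2 (r = 0.94), Slc13a3 (r = 0.94) and Aebp1 (r = 0.94), over 12 mice. As the highest of 17647 correlations over 12 mice, these values are high in part through selection. HC replicate 2 was the highest mouse for Kcnj13, Bcl2l11 and Slc13a3, and CSD replicate 7 for Itih2 and Aebp1. Kcnj13 codes for a potassium channel known from choroid plexus, Bcl2l11 for the proapoptotic protein Bim, Itih2 for a hyaluronan-binding serum protein, Slc13a3 for a dicarboxylate carrier and Aebp1 for a collagen-binding secreted protein.

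The markers of 9 cell types were also read beside the 9 genes. Of the 10 meningeal fibroblast markers, collagens among them, 8 were above the noise level on all 12 arrays and 0 were at it on every array. The 10 were Dcn, Lum, Col1a1, Col1a2, Col3a1, Igf2, Slc6a13, Pdgfra, Islr and Ogn. Whether these markers are particular to meningeal fibroblasts in this tissue was not tested. Their mean log2 level ran from 7.69 to 8.19 in HC and from 7.76 to 8.42 in CSD, a difference of 0.03. Within groups it correlated with the average of the 9 genes at r = 0.90 (rho = 0.91, 12 mice). Without the 2 mice farthest from the median, CSD replicates 7 and 9, r was 0.89, and with arrays centered on their medians it was 0.84. By gene, r ran from 0.26 for Irf7 to 0.89 for Irf9. In bulk tissue, fewer cells of a type and less RNA per cell cannot be told apart. With the meningeal marker level as a covariate, an alternative chosen after seeing the data, the difference of Ifit3 was -0.24 (SE 0.10; limma p 0.0308 before and 0.483 after adjustment), and limma called 0 of the 9.

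Some of the other marker lists correlated with the average of the 9 genes within groups as well. For 12 astrocyte markers r was 0.85, for 11 endothelial markers 0.83 and for 11 microglial markers 0.59. Without the 2 farthest mice the endothelial value was 0.53 and the microglial value 0.23, whereas the astrocyte value was 0.86. With arrays centered on their medians, r was 0.64 for the astrocyte, 0.73 for the endothelial and 0.29 for the microglial markers. For 10 inhibitory neuron markers r was 0.52, and 0.37 with centering. For 9 excitatory neuron, 8 blood leukocyte and 4 red blood cell markers r was 0.24, 0.35 and 0.46. With centering these values were -0.25, -0.35 and -0.16. By gene, r with the leukocyte markers ran from -0.26 for Ifit3 to 0.83 for Irf7. With the red blood cell markers r ran from -0.24 for Ifitm3 to 0.86 for Irf7. Mature oligodendrocyte markers, which separated the groups, went the other way at r = -0.33. The mean log2 level of these 11 markers was 9.61 to 10.22 in HC and 9.03 to 9.58 in CSD. All 11 were lower at an unadjusted limma p under 0.05, compared with 6.52% of all genes, while 0 passed adjustment. The part of any of these cell types in the values of the 9 genes was not tested.

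**Figure D5:**
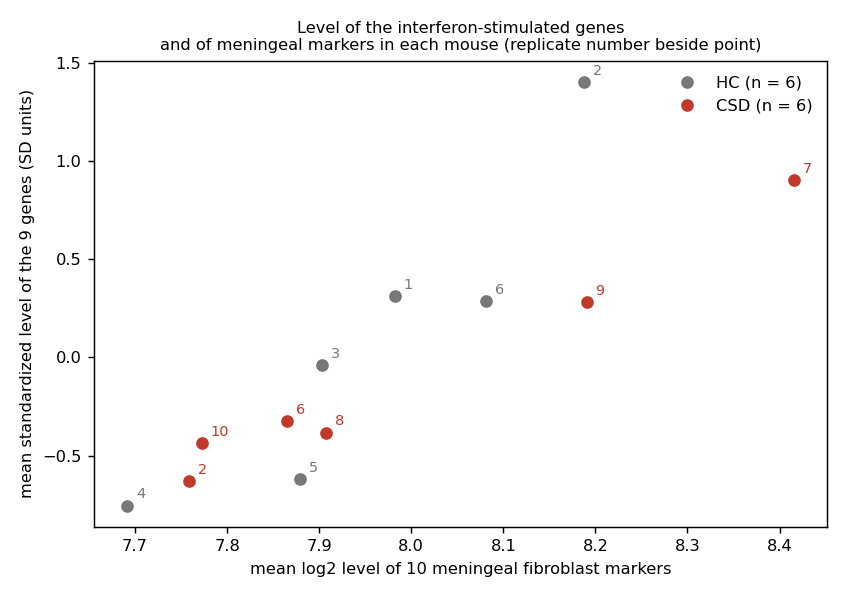
Mean standardized level of the 9 interferon-stimulated genes (y axis, SD units) against the mean log2 level of 10 meningeal fibroblast markers (x axis) in 6 HC (grey) and 6 CSD (red) mice, with replicate numbers beside the points. HC replicate 2 at 1.40 and CSD replicate 7 at 0.90 stand highest and HC replicate 4 at -0.75 lowest; CSD replicate 7 has the highest marker level, 8.42, and the highest HC level is 8.19.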

How the data were processed

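The authors deposited log2 values, made from the arrays with RMA in the Affymetrix Expression Console; their versions: not given in the sources used here. RMA fits 1 value per probe set, which damps outlying probes; the array medians of the deposited values still ran from 7.50 to 7.69. The table holds 35556 probe sets for 12 arrays. The platform annotation of 2016 names 1 gene for 21789 of them, several for 1621 and none for 12146. Groups and replicate numbers were read from the sample titles.

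The methods set a noise level without giving its value, and 5.75, the 20th percentile of the deposited values, was taken. Probe sets with no value above it (5718) were left out, and lower values in the 29838 kept (4.67%) were raised to it. limma 3.58.1 in R 4.3.3 compared CSD with HC (lmFit, eBayes, two-sided, no covariate), with Benjamini-Hochberg adjustment over all kept probe sets. Single genes were also given exact two-sided permutation tests over 924 splits (scipy 1.17.1). Alternatives covered the noise level, floor, filter, scaling, the Welch test of the methods, array weights, a replicate block and leaving out mice. The fit was tested on simulated data.

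The members and gene lists were chosen with earlier results of these data known. Beside the 9 members, the genes named are the 2 with the smallest p of each list, list members at an unadjusted p under 0.05, the other Ifit and Ifitm genes, and the 5 genes most correlated with the members' average. Promoter sequences and coordinates are from RefSeq, GRCm38.p6.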

Additional observations from a re-analysis of the deposited data

Results flagged for a closer look

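Among 74 groups of 6 values, 6 held a mouse whose distance to its nearest neighbor, as a share of the whole range, exceeded 0.625, a limit that chance passes in about 1 in 20 groups. Of the 18 groups of the 9 interferon-stimulated genes, 0 held such a mouse. HC replicate 2 stood high for Gbp5 (share 0.767, log2 level 6.06 against 5.82 for the next mouse) and for Tyk2 (0.659, 7.96 against 7.74). The lowest HC values of Gbp5 were set to the noise level, 5.75. This shortens the range, so that the rate of 1 in 20 does not hold for Gbp5. HC replicate 4 stood high for Socs2 (0.640, 10.02 against 9.80), and HC replicate 1 stood low for Stat6 (0.650, 7.75 against 7.85). In CSD, replicate 10 stood low for Irgm1 (0.646, 7.51 against 7.73) and replicate 9 high for Oas2 (0.739, 7.23 against 7.05). No explanation was tested for any of these.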

How the results depend on the processing

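Under all alternatives run, limma called 0 of the 9 genes after adjustment, and in the 20 alternatives in which overlap was counted, the groups of all 9 overlapped. The count of the 9 at an unadjusted p under 0.05 with the fold limit ranged from 0 to 1 when single mice were left out (1, Ifit3, without HC replicate 4 or CSD replicate 7). It was also 1 without HC replicate 2 and CSD replicate 7 together, an alternative chosen after seeing the data. The sample titles do not say whether the shared replicate numbers 2 and 6 pair the mice, and they were not treated as pairs. The deviations of the mice with these numbers correlated at -0.21 and -0.04, and 2 such values cannot decide this. With the replicate block, which keeps only those 4 mice, the groups did not overlap for 6 of the 9, compared with 40.4% of all genes, and the unadjusted count was 1 (Ifitm3, -0.58, limma p 0.0190 before and 1 after adjustment), and the median difference of the 9 was -0.21. Also under the replicate block, Irf7 turned to -0.045, Stat2 to -0.17, Tyk2 to -0.062, Ifitm1 to -0.18 and Ifitm10 to -0.016. The median of the 9 ranged from -0.08 to -0.02 when single mice were left out, and turned to 0.036 without HC replicates 2 and 6 together.

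Signs also turned for values near 0. Without HC replicates 2 and 6 together the differences were 0.042 for Ifit1, 0.0032 for Ifit2, 0.0020 for Irf9, 0.0056 for Usp18, 0.050 for Ifitm3, 0.0065 for Irf3, -0.012 for Ifitm10 and 0.092 for Ifitm2. Irf7 was -0.029 with a noise level 1 log2 unit higher, -0.00030 with arrays centered on their medians and -0.0074 with quantile normalization. Ifitm1 was -0.00056 and Ifitm10 -0.014 with centering, and Ifitm2 was 0.015 with quantile normalization and 0.0060 with array weights. With the mean over probe sets, Ifitm1 was -0.012 and Ifitm2 6.89e-05. With the meningeal covariate, Ifitm1 was -0.0053 and Ifitm10 -0.0030. Leaving out single mice gave ranges of -0.15 to 0.024 for Ifit1, -0.056 to 0.10 for Irf7, -0.18 to 0.021 for Ifitm3, -0.041 to 0.076 for Ifitm1, -0.035 to 0.033 for Ifitm10 and -0.094 to 0.055 for Ifitm2. The cause was not tested.

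The count of other interferon system genes lower at an unadjusted p under 0.05, 10, ranged from 6 (without HC replicate 2 or 6) to 13 when single mice were left out. It was 15 with quantile normalization, 14 with the meningeal covariate, 13 with centering, 3 with the replicate block, 3 without HC replicates 2 and 6 and 5 without HC replicate 2 and CSD replicate 7. The count higher, 5, ranged from 1 to 11 (11 without HC replicate 2). It was 3 with the Welch test, without a floor, with centering, with quantile normalization and with robust estimation. It was 2 without filter and floor, 0 with the replicate block and 11 without HC replicate 2 and CSD replicate 7. These settings for the counts of other genes were chosen after seeing the data. The scaling moved the median of all genes from -0.01 to -0.02 with centering. Precision was limited by 6 arrays per group, and probe sets near the noise level, such as Gbp5, carry little signal.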
